A study of Homo sapiens with 26 samples.

Results

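The genes described here are 10 epithelial genes used as markers of the classical, secretory form of pancreatic ductal adenocarcinoma: the trefoil peptide genes TFF1, TFF2 and TFF3, the disulfide isomerase genes AGR2 and AGR3, the secreted protein genes REG4 and LYZ, the protease gene CTSE, the transcription factor gene SPDEF, and CLRN3. They were taken by symbol from 62778 gene identifiers in 3 tables of read counts, and were chosen with earlier results of these data known. All 10 were found in each table. The study changed the level of HNF4A, which encodes the nuclear receptor HNF4α, in 3 established cell lines of human pancreatic ductal adenocarcinoma, and measured poly(A) RNA in 26 libraries. The question of the series is how the HNF4α isoforms made from the promoters P1 and P2 differ in their control of growth and identity.

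Panc10.05 (6 libraries) and BxPC3 (6 libraries) carried a doxycycline-inducible isoform, called P1-a2 or P2-a8 (HNF4α2 from P1 and HNF4α8 from P2), and each group had 2 libraries. In Panc10.05 the P1-a2 cells and the GFP-NC control cells received 25 ng/mL doxycycline and the P2-a8 cells 12.5 ng/mL, whereas in BxPC3 the P1-a2, P2-a8 and EV-NC control cells all received 500 ng/mL. ASPC1 (14 libraries, no doxycycline in the labels) expresses HNF4A on its own, and CRISPR interference, in which a guide RNA brings a repressor to a promoter, was used against it. The guides sgP1E and sgP1J made up the group sgP1, sgP2D and sgP2G the group sgP2, and sgDual2 and sgDual3 the group sgDual, in which both promoters were targeted. Each guide had 2 libraries, as had the control guide sgNC. The time of treatment, and whether cells were clones or pools, is not given in the sources used here. Nothing says that the replicate libraries came from separate cultures, so that p-values measure the spread between these libraries.

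Trefoil peptides are small cysteine-rich proteins that mucous cells release together with mucins, TFF1 and TFF2 mainly in the stomach and TFF3 mainly in intestinal goblet cells. AGR2 resides in the endoplasmic reticulum, where it helps to fold mucins, and SPDEF is an ETS-family factor that drives goblet cell maturation. HNF4α is a transcription factor of liver, gut and pancreas epithelium and binds DNA as a dimer at repeats built around CAAAGTCCA.

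The proximal promoters of 6 of the 10 genes were matched in RefSeq promoter windows of 300 bases, 250 before and 50 after the annotated start (build GRCh38.p14). TFF1, TFF2, TFF3 and LYZ had no entry. Of these, 3 are shown as the 250 bases before the start, 5′ to 3′ on the strand of the gene, because CLRN3 and REG4 contained the looser HNF4 core CAAAGNNCA (N is any base) and because AGR2, with the largest rise among the members in ASPC1, did not. Capitals mark matches to CAAAGNNCA and to TATAAA.

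CLRN3 (chr10:127892942-127893191, minus strand): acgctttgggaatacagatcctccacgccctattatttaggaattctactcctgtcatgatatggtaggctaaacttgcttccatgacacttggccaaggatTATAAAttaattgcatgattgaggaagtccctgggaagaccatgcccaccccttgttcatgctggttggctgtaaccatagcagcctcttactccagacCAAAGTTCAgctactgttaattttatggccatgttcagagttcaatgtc
REG4 (chr1:119811461-119811710, minus strand): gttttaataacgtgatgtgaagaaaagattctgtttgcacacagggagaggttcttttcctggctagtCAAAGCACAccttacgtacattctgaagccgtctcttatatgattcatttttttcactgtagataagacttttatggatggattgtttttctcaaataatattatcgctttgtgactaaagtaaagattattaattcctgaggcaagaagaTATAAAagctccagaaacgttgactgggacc
AGR2 (chr7:16805000-16805249, minus strand): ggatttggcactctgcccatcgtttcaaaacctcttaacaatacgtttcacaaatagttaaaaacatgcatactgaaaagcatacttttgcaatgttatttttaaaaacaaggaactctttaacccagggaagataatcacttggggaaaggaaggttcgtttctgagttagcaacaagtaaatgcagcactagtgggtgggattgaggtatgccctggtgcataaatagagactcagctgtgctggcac

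In CLRN3 the match CAAAGTTCA lay at -49 to -41 from the start, and in REG4 the match CAAAGCACA lay at -182 to -174. On either strand, CAAAGNNCA occurred in 5.28% of all 35116 RefSeq promoter windows of the same length. The windows of AGR2, AGR3, CTSE and SPDEF held no match to it, and none of the 6 held CAAAGTCCA, which occurred in 0.384% of windows. TATAAA lay at -31 to -26 in both REG4 and AGR3 and at -148 to -143 in CLRN3, and occurred in 11.5% of windows on either strand. A further TATAAA of CLRN3, on the opposite strand, lay at 35 to 40 after the start. These letter matches describe the windows and are not measured binding sites.

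The trefoil genes lie side by side on the minus strand of chromosome 21, within 54.9 kb (TFF3 at chr21:42311667-42315651, TFF2 at chr21:42346357-42351128, TFF1 at chr21:42362282-42366594, GENCODE v29 on GRCh38). AGR2 and AGR3 are neighbours on chromosome 7, within 90.2 kb. Exons of LYZ, on chromosome 12, share 599 bases with the antisense gene AC020656.1. That gene had at most 4 counts in any ASPC1 library, where LYZ had 354 to 2806, and at most 1 count in the other lines.

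The counts summed to between 34618745 and 46827673 per Panc10.05 library, between 26369154 and 37483772 per BxPC3 library and between 26079388 and 50662077 per ASPC1 library. Levels are given as CPM, read counts scaled to a common library size with edgeR's TMM factors, changes as log2 fold changes ± standard error, and a change was called at an adjusted p under 0.05. HNF4A itself was at 0.058 and 0.24 CPM in the Panc10.05 controls, at 10.7 and 13 with P1-a2, and at 37.6 in both P2-a8 libraries. In BxPC3 it was at 0.464 and 1.08 CPM in the controls, 9.76 and 11.6 with P1-a2, and 12.6 and 14.2 with P2-a8. In ASPC1 its mean was 213 CPM with sgNC, 129 with sgP1, 86.5 with sgP2 and 7.99 with sgDual, and gene counts do not separate P1 from P2 transcripts. The fall in HNF4A was past the test with sgDual (-4.73 ± 0.39, adjusted p = 6.25e-06). It was not with sgP1 (-0.72 ± 0.36, adjusted p = 0.615) or sgP2 (-1.30 ± 0.36, adjusted p = 0.0751). Nor did HNF4A differ beyond the test between sgP2 and sgP1 (-0.58 ± 0.31, adjusted p = 0.343). Each of 6 epithelial markers exceeded 3 counts in at least 1 library of each line. The mean of the lowest was 158 CPM in Panc10.05, 138 CPM in BxPC3 and 2.78 CPM in ASPC1. None of 4 acinar markers exceeded 3 counts in Panc10.05 or ASPC1. The fibroblast gene LUM was at a mean of 203 CPM in ASPC1 and at 0 in every Panc10.05 library, and a list of 6 fibroblast markers summed to 132 to 301 CPM across the ASPC1 libraries. Its part in the results was not tested. The P1-a2 and P2-a8 comparisons share the controls of their line, and the sgP1, sgP2 and sgDual comparisons share the sgNC libraries. Small groups often did not overlap. In Panc10.05 this held for 79.8% of all genes with P1-a2 against the controls, 70.4% with P2-a8 and 72.9% between the isoforms. In BxPC3 the shares were 66%, 50.5% and 60.5%. In ASPC1 they were 14.4% with sgP1, 31% with sgP2 and 59.5% with sgDual against sgNC. They were 34.9% and 48.8% for sgDual against sgP1 and sgP2, and 9.68% for sgP2 against sgP1.

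The lines differed in which members they expressed before any change in HNF4A. Per kilobase of exon, AGR2 was the highest of the 10 in the BxPC3 controls (86.1 ± 4.30 CPM per kb, SD, n = 2), followed by SPDEF at 6.91 ± 1.11. In ASPC1 with sgNC, CLRN3 came first at 30.6 ± 5.59 CPM per kb, followed by LYZ at 22.8 ± 3.18 and TFF3 at 9.23 ± 0.57. The difference between CLRN3 and LYZ there was smaller than the sum of their SDs, as was that between AGR2 (5.97 ± 1.67) and TFF2 (5.43 ± 0.74). In the Panc10.05 controls CTSE led at only 0.657 ± 0.129 CPM per kb. TFF1, TFF2, TFF3, AGR3, REG4 and SPDEF had no more than 5 counts in any Panc10.05 library, and AGR2 had 2 to 19. With so few counts, 3 members passed the filter on low counts in Panc10.05 (LYZ, CTSE and CLRN3), 8 in BxPC3 (all but TFF2 and REG4) and 9 in ASPC1 (all but AGR3). Those that passed are therefore not all members. LYZ passed in Panc10.05 through its P2-a8 libraries alone and in BxPC3 through its P1-a2 libraries alone, CLRN3 passed in both lines through induced libraries alone, AGR3 passed in BxPC3 through the controls alone, and SPDEF passed in ASPC1 through 1 sgP1 and 1 sgDual library. These genes entered the test through the libraries in which they were high, so that a difference was favoured before the test.

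**Figure D1:**
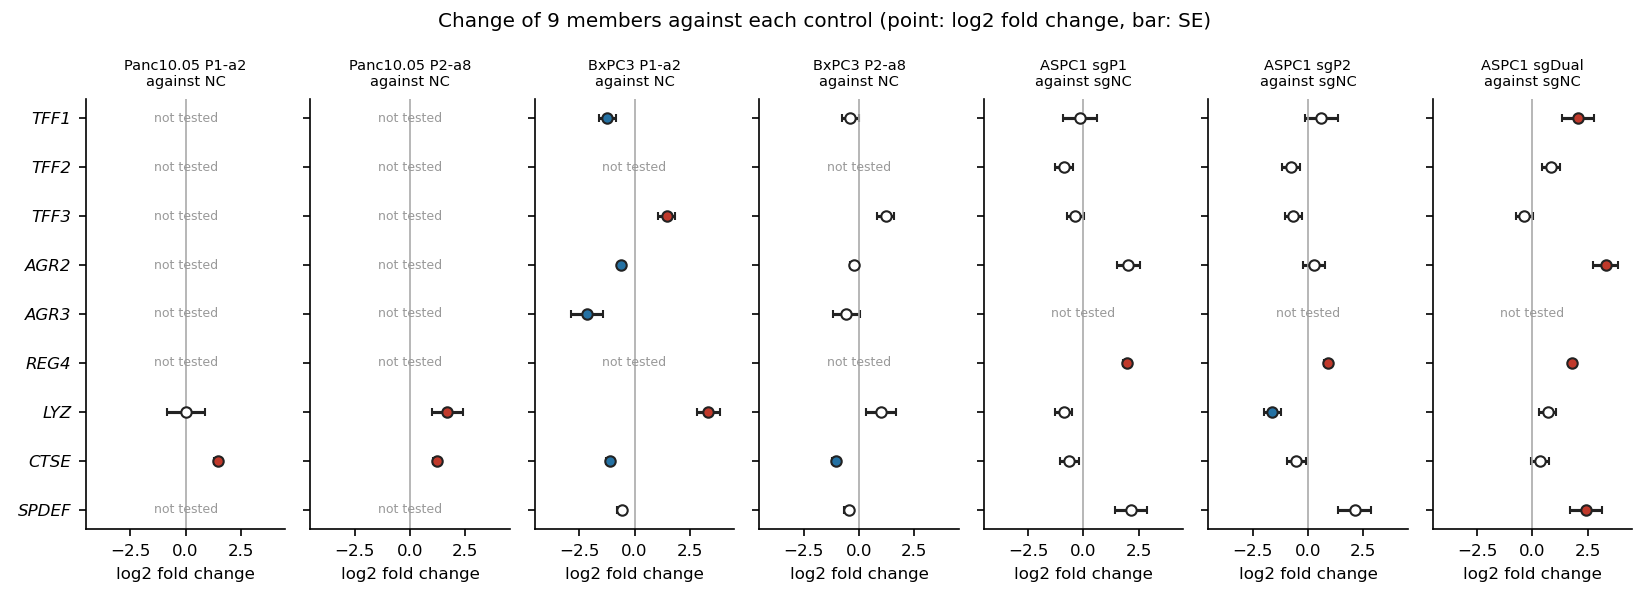
Log2 fold change against the line's control (x axis) of 9 members (y axis), 1 panel per comparison, with bars for the SE. Red points were called higher and blue points lower at an adjusted p under 0.05, open points were not called, and CLRN3 is left out because its control libraries in the induced lines held no counts. REG4 lies to the right in all 3 ASPC1 panels, and CTSE lies to the right in Panc10.05 and to the left in BxPC3.

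CLRN3, which encodes a multi-pass membrane protein of the clarin family, rose from no reads with both isoforms in both induced lines and fell with sgDual in ASPC1. No read of CLRN3 was counted in the 4 control libraries of Panc10.05 and BxPC3. With P1-a2 it reached 2.11 and 2.31 CPM in Panc10.05 and 16.6 and 21.2 CPM in BxPC3, and with P2-a8 it reached 1.41 CPM in both Panc10.05 libraries and 3.29 and 3.43 CPM in BxPC3. Every induced library was thus above every control of its line. That held for 40.9% of all genes with P1-a2 and 35.3% with P2-a8 in Panc10.05, and for 32.5% and 27.7% in BxPC3. Against a floor of 3 counts in the shallowest control library, the rise was at least 25.4-fold with P1-a2 and at least 16.2-fold with P2-a8 in Panc10.05 (adjusted p = 6.36e-15 and 3.73e-12). In BxPC3 it was at least 169-fold with P1-a2 and at least 30.1-fold with P2-a8 (adjusted p = 4.31e-08 and 8.05e-06). CLRN3 passed the filter in both lines through induced libraries alone, so that these rises were favoured before the test. In bulk RNA, fewer expressing cells and less RNA per cell cannot be told apart, here and in every result that follows.

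P1-a2 gave more CLRN3 RNA than P2-a8. In BxPC3 the difference was 2.49 ± 0.16 (adjusted p = 1.15e-05, 5.62-fold) and the groups did not overlap. HNF4A RNA did not differ between the isoforms there beyond the test (-0.33 ± 0.17, adjusted p = 0.217). In Panc10.05 the difference was 0.65 ± 0.24 (adjusted p = 0.0235), at a lower HNF4A level with P1-a2 than with P2-a8 (-1.66 ± 0.10, adjusted p = 5.02e-17) and at a different doxycycline dose. Leaving out any 1 of those 4 Panc10.05 libraries took the adjusted p to between 0.0548 and 0.12, and DESeq2 gave 0.141. In a joint fit of both lines, the isoform difference in Panc10.05 minus that in BxPC3 was -1.84 ± 0.27 (adjusted p = 3.87e-05).

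In ASPC1, CLRN3 was at 30.6 and 39.8 CPM with sgNC. With sgDual2 it was at 9.10 and 13.7 CPM and with sgDual3 at 7.28 and 11.4 CPM, so that all 4 sgDual libraries lay below the other 10. The change was -1.76 ± 0.22 (adjusted p = 6.76e-05). sgDual was also lower than sgP1 by -1.57 ± 0.19 (adjusted p = 4.59e-05) and than sgP2 by -1.63 ± 0.19 (adjusted p = 1.77e-05). With sgP1 it ranged from 22.1 to 37.4 CPM and with sgP2 from 29.7 to 35.9 CPM, and neither group differed from sgNC beyond the test (95% intervals of the difference -0.63 to 0.25 and -0.57 to 0.31). The change with sgDual departed from the sum of the single-promoter changes, by -1.44 ± 0.30 (adjusted p = 0.00454). Over the 6 guides, the genes with log2 fold changes close to those of CLRN3 included DDC (root mean square difference 0.13) and GAL3ST1 (0.15), among 10545 genes of at least 5 CPM.

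**Figure D2:**
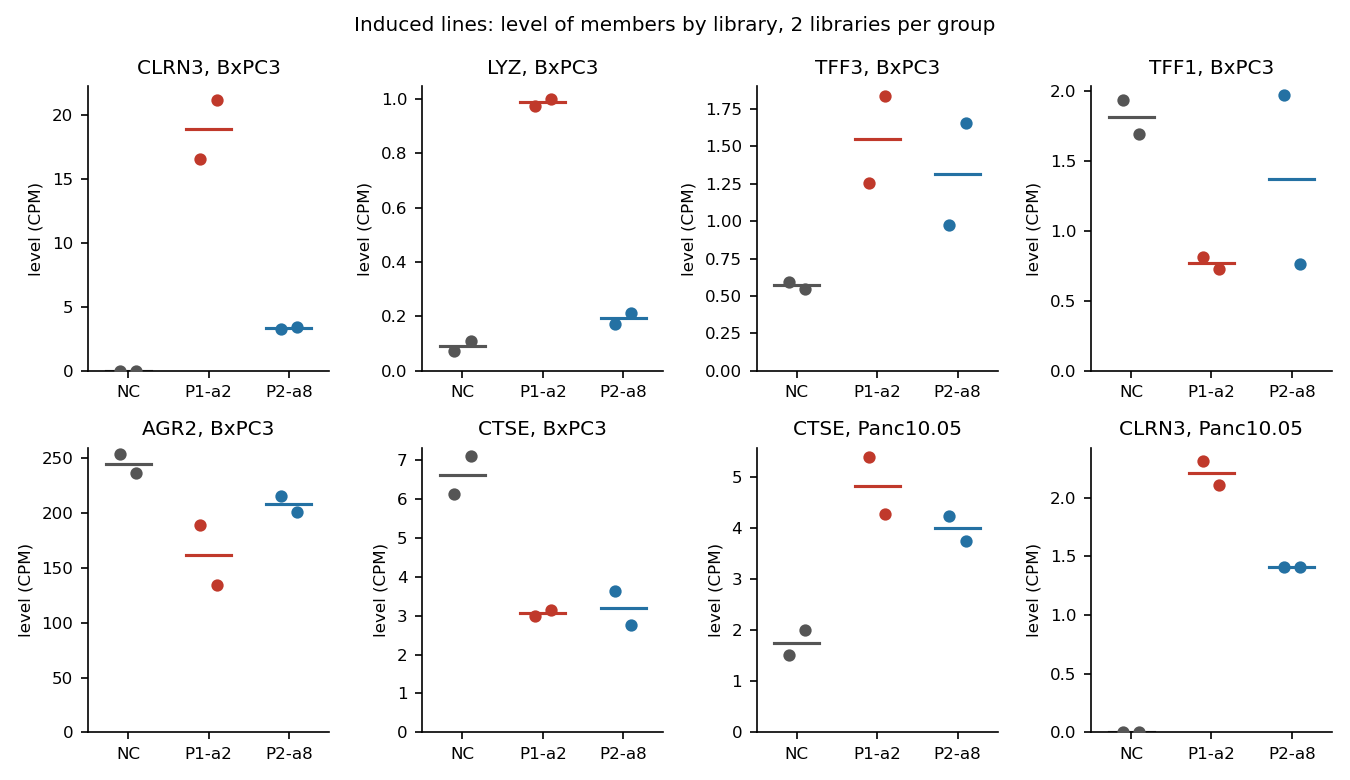
Level in CPM (y axis, from 0) of members in each library of BxPC3 and Panc10.05 by group (x axis), with points for the 2 libraries and a line for their mean. CLRN3 is at 0 in the controls of both lines, LYZ in BxPC3 is high with P1-a2 alone, and CTSE is below the controls in BxPC3 and above them in Panc10.05.

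CTSE, an intracellular aspartic protease of gastric epithelium, moved in opposite directions in the induced lines. In Panc10.05 it was at 1.51 and 2 CPM in the controls, 4.28 and 5.39 with P1-a2 and 3.75 and 4.25 with P2-a8. In BxPC3 it was at 6.13 and 7.10 CPM in the controls, 2.98 and 3.14 with P1-a2 and 2.76 and 3.63 with P2-a8. No induced library overlapped the controls of its line. That held for 79.8% of all genes with P1-a2 and 70.4% with P2-a8 in Panc10.05, and for 66% and 50.5% in BxPC3. The changes were 1.47 ± 0.19 with P1-a2 (adjusted p = 5.22e-09) and 1.21 ± 0.19 with P2-a8 (adjusted p = 1.22e-06) in Panc10.05. They were -1.12 ± 0.18 (adjusted p = 0.000705) and -1.05 ± 0.18 (adjusted p = 0.00456) in BxPC3. The P2-a8 call in BxPC3 reached an adjusted p of 0.0563 without EV-NC library 2. The difference between the lines was itself past the test, at 2.60 ± 0.27 for P1-a2 (adjusted p = 7.18e-08) and 2.26 ± 0.28 for P2-a8 (adjusted p = 2.08e-06). Between the isoforms the difference was not past the test in either line, with 95% intervals of -0.06 to 0.58 in Panc10.05 and -0.44 to 0.31 in BxPC3.

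In ASPC1, CTSE stood at 20 to 72 counts per library and no group differed from sgNC beyond the test. Its levels were 0.931 and 1.84 CPM with sgNC, 0.487 to 1.64 with sgP1, 0.71 to 1.38 with sgP2 and 1.39 to 2.06 with sgDual. The sgDual group was higher than sgP1 by 0.97 ± 0.34 (adjusted p = 0.0337), a call that was lost without guide sgP1E (0.46, adjusted p = 0.268), sgDual3 (0.73, adjusted p = 0.234) or sgDual2 (1.18, adjusted p = 0.0525). Without sgP1J the difference was 1.69 (adjusted p = 0.00131). Leaving out any 1 library of sgP1E or sgDual3, or sgP1J library 2, took the adjusted p to between 0.0572 and 0.0958. Against sgP2 the difference was 0.86 ± 0.34 and stood at the threshold (adjusted p = 0.0501), with DESeq2 at 0.0375.

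REG4, a secreted lectin-like protein of the REG family, rose whenever a HNF4A promoter was targeted in ASPC1. It was at 6.93 and 7.79 CPM with sgNC. With sgP1E it was at 30.7 and 35.4 CPM and with sgP1J at 24.4 and 24.5 CPM. With sgP2D it was at 12.6 and 15.3 CPM and with sgP2G at 12.8 and 13.7 CPM. The sgDual libraries ran from 22.3 to 29.2 CPM. All 12 libraries with a promoter guide were above both sgNC libraries, and those of sgP2 were below all of sgP1 and sgDual. Of all genes, 7.5% lay above sgNC in every sgP1 library, 15.4% in every sgP2 library and 29.8% in every sgDual library.

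The change in REG4 was 1.97 ± 0.16 with sgP1 (3.91-fold, adjusted p = 7e-05), 0.89 ± 0.16 with sgP2 (1.85-fold, adjusted p = 0.00791) and 1.81 ± 0.16 with sgDual (3.50-fold, adjusted p = 2.12e-06). Without sgNC library 1 or 2 the adjusted p for sgP2 was 0.0789 or 0.137. sgP2 stood below sgP1 by a log2 difference of -1.08 ± 0.12 (adjusted p = 0.000291), while sgDual and sgP1 did not differ beyond the test (95% interval -0.39 to 0.07). sgDual was higher than sgP2 by 0.92 ± 0.12 (adjusted p = 2.22e-05). The change with sgDual was smaller than the sum of the single-promoter changes, 2.85, by a departure of -1.04 ± 0.20 (adjusted p = 0.00193). Most like it over the 6 guides were SMIM3 (root mean square difference 0.547), DENND2B (0.553) and P3H2 (0.607). In Panc10.05 and BxPC3 REG4 had at most 3 counts in any library, so that no effect of the induced isoforms was detectable at this depth.

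AGR2, the disulfide isomerase of mucin-producing cells, showed its highest levels in ASPC1 with sgDual. It was at 13.6 and 20.3 CPM with sgNC and at 10.7 to 35.7 CPM with sgP2. The libraries of sgP1E were at 36.6 and 66.7 CPM and those of sgP1J at 60.1 and 114 CPM. With sgDual2 it reached 180 and 210 CPM and with sgDual3 126 and 156 CPM. All 4 sgDual libraries were above the other 10, and the sgP1 libraries were all above those of sgNC and sgP2.

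The rise of AGR2 was 3.31 ± 0.56 with sgDual (9.90-fold, adjusted p = 0.000998). With sgP1 the difference was 2.03 ± 0.53, which was not past edgeR's test (adjusted p = 0.193) but was past that of DESeq2 (adjusted p = 0.00985). sgDual was higher than sgP2 by 3.03 ± 0.42 (adjusted p = 0.00013) and than sgP1 by 1.28 ± 0.39 (adjusted p = 0.0217). The last was lost without guide sgP1E or without guide sgDual2 (adjusted p = 0.132 in each) and without sgDual2 library 2, sgP1E library 1 or sgP1J library 1 (adjusted p = 0.0562, 0.0503 and 0.0594). The difference of -1.75 ± 0.40 between sgP2 and sgP1 (adjusted p = 0.0345) was lost without either of guides sgP1J and sgP2G (adjusted p = 0.137 and 0.182) and without either library of sgNC, sgP1J or sgP2G, without sgP1E library 2, sgP2D library 1 or sgDual2 library 1 (adjusted p = 0.0504 to 0.0982). FOXA1 (root mean square difference 0.447), CREB3L1 (0.637) and SLPI (0.752) were most like AGR2 over the 6 guides.

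In BxPC3, whose controls had the highest AGR2 level of the 3 lines, AGR2 was at 236 and 254 CPM in the controls, 134 and 189 with P1-a2 and 200 and 216 with P2-a8. The P1-a2 libraries lay below both others. The change with P1-a2 was -0.60 ± 0.16 (adjusted p = 0.0361), and it was not past the test when any 1 control or P2-a8 library was left out (adjusted p = 0.0994 to 0.157). Without P1-a2 library 2 it was -0.38 (adjusted p = 0.0048). With P2-a8 it was -0.23 ± 0.16 (adjusted p = 0.494). AGR3, the neighbouring homologue of AGR2, was sparse and passed the filter in BxPC3 through the controls alone. It had 9 and 12 counts in the BxPC3 controls and 1 and 4 with P1-a2, a change of -2.14 ± 0.73 (adjusted p = 0.0435) that was lost on leaving out any 1 of the 6 libraries (adjusted p = 0.0653 to 0.25), and that was -3.25 without P1-a2 library 2. In ASPC1 AGR3 summed to 1 count over the sgNC libraries and 20 over the sgDual libraries, a ratio of 8.98 with an exact binomial 95% interval of 1.44 to 372 that covers counting error only. AGR3 had no count in Panc10.05.

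**Figure D3:**
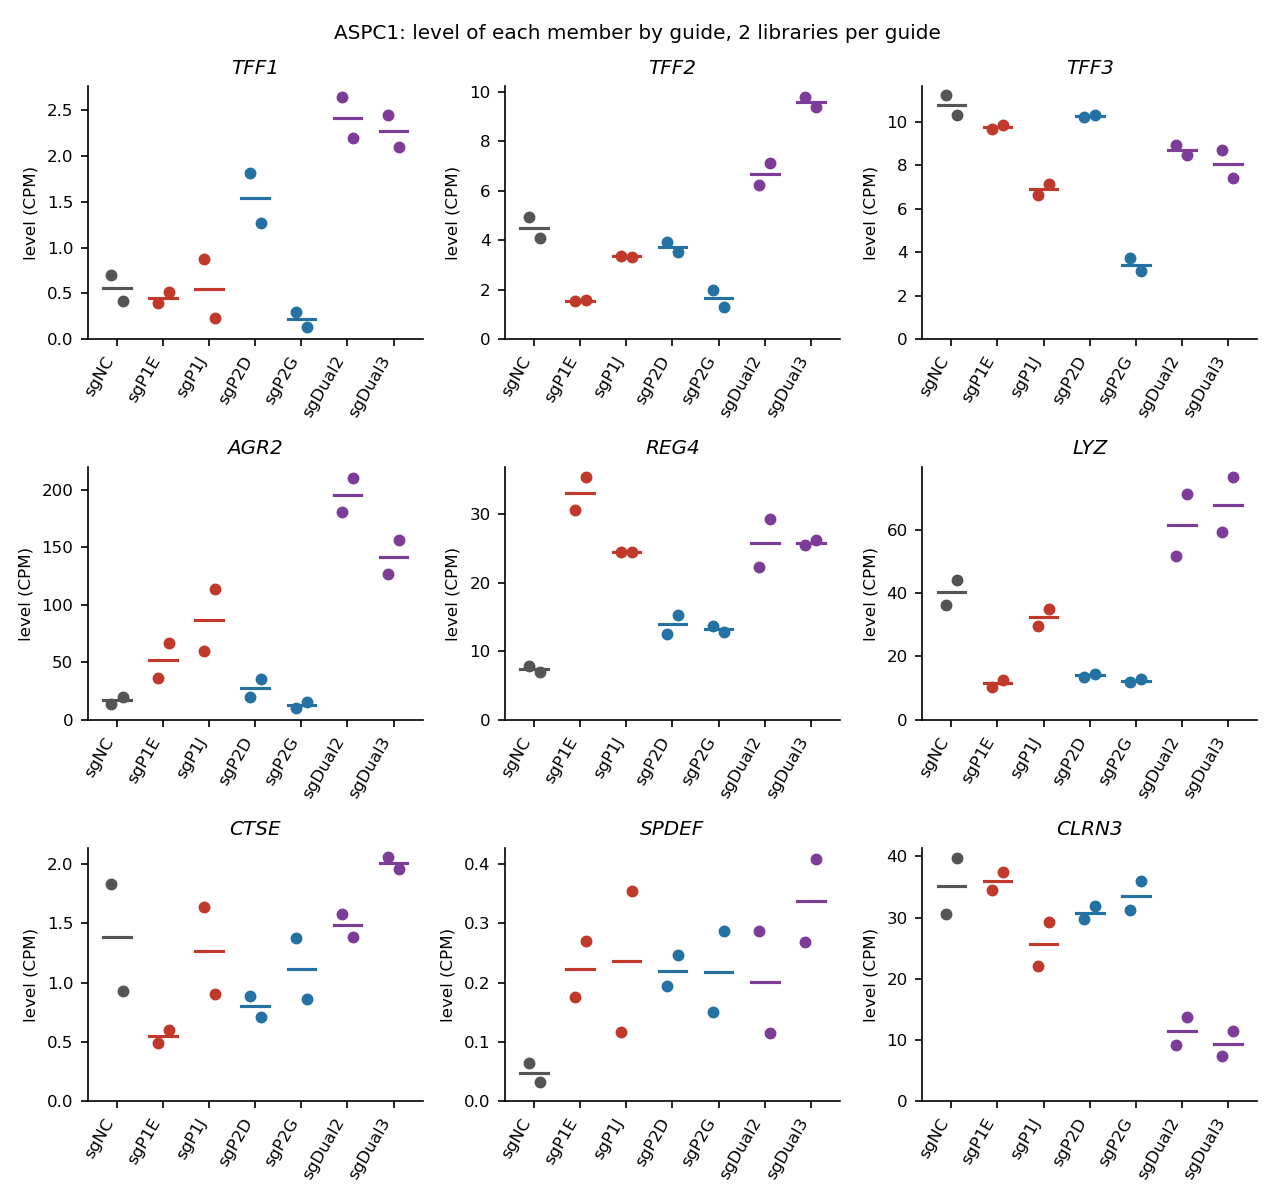
Level in CPM (y axis, from 0, scaled by gene) of 9 members in ASPC1 by guide (x axis), with points for the 2 libraries of a guide, a line for their mean and colours for sgNC (grey), sgP1 (red), sgP2 (blue) and sgDual (purple). AGR2 is highest and CLRN3 lowest with the sgDual guides, REG4 is above sgNC with every guide, and LYZ and the trefoil genes differ between guides of 1 group.

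LYZ encodes lysozyme, a secreted enzyme that cleaves bacterial cell walls. In ASPC1 its level was 36.2 and 44.2 CPM with sgNC. The 4 sgP2 libraries were lower, at 11.9 to 14.3 CPM. With sgP1E it was at 10.4 and 12.6 CPM, close to sgP2, but with sgP1J at 29.7 and 34.9 CPM. With sgDual it was at 51.6 to 76.4 CPM, above every other library.

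LYZ changed by -1.61 ± 0.39 with sgP2 (adjusted p = 0.0488), a call that was lost on leaving out any 1 library of sgNC, sgP2 or sgDual (adjusted p = 0.0631 to 0.287). Against the control libraries the sgDual change of 0.68 ± 0.40 was not past the test (adjusted p = 0.216). It was past it in a fit of those 2 groups alone (adjusted p = 0.0144). sgDual was higher than sgP1 by 1.57 ± 0.33 (adjusted p = 0.003; 1.01 without guide sgP1E and 2.50 without sgP1J) and than sgP2 by 2.29 ± 0.34 (adjusted p = 0.000219). The single-promoter changes summed to -2.49, and sgDual departed from that sum by 3.17 ± 0.51 (adjusted p = 0.00143), the largest departure among the 9 members tested. LYZ was lower with sgP1E than with sgP1J by -1.50 ± 0.18 (adjusted p = 0.000199). ZNF503 (root mean square difference 0.36), DSG3 (0.466) and HOXA-AS3 (0.525) were most like LYZ over the guides.

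LYZ was near the floor in the induced lines, and rose from it with P1-a2 in BxPC3. There it had 2 and 4 counts in the controls, 31 and 37 with P1-a2 and 6 and 7 with P2-a8. In CPM this was 0.0744 and 0.109, then 0.973 and 1.00, then 0.172 and 0.214. The change with P1-a2 was 3.34 ± 0.52 (adjusted p = 0.000565), and the ratio of summed counts per depth was 10.4 (exact binomial 95% interval 4.56 to 29.5, counting error only). P1-a2 exceeded P2-a8 by 2.34 ± 0.45 (adjusted p = 0.00393). LYZ passed the filter here through its P1-a2 libraries alone, so that both differences were favoured before the test.

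In Panc10.05 the order of the isoforms was the opposite for LYZ, on few counts. LYZ passed the filter there through its P2-a8 libraries alone. It had 1 and 6 counts in the controls, 4 and 4 with P1-a2, and 13 and 12 with P2-a8. The P2-a8 change was 1.69 ± 0.70 (adjusted p = 0.0451). That call was lost on leaving out any library except GFP-NC library 2 (adjusted p = 0.0649 to 0.473). The change was 0.81 without GFP-NC library 1 and 3.51 without GFP-NC library 2. DESeq2 gave an adjusted p of 0.214, and a fit with no filter on low counts 0.0938. The P1-a2 against P2-a8 difference of -1.66 ± 0.68 (adjusted p = 0.0407) was lost without GFP-NC library 2 or any 1 library of the isoforms (adjusted p = 0.0537 to 0.2). The 2 lines differed in the isoform contrast by -3.99 ± 0.83 (adjusted p = 0.00106), and in the P1-a2 change by -3.31 ± 1.09 (adjusted p = 0.0199), the latter falling to -1.52 (adjusted p = 0.635) without GFP-NC library 2. Without EV-NC library 1 or Panc10.05 P1-a2 library 2 its adjusted p was 0.0505 or 0.052.

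The neighbouring trefoil genes differed in direction in ASPC1 with sgDual against sgNC, at 2.06 (TFF1), 0.85 (TFF2) and -0.36 (TFF3), and only TFF1 was called. With sgP1 all were lower and none was called. Between sgP2D and sgP2G all differed in the same direction, as given below. The trefoil genes were not tested against each other. TFF1 was at 0.417 and 0.697 CPM with sgNC and at 2.10 to 2.64 CPM with sgDual, and these groups did not overlap (29.8% of all genes were likewise higher). Its change was 2.06 ± 0.72 (adjusted p = 0.0391), which was lost without either sgNC library (adjusted p = 0.14 and 0.21) or any 1 sgDual library (adjusted p = 0.0572 to 0.0666). TFF1 stood higher with sgDual than with sgP1 by 2.23 ± 0.55 (adjusted p = 0.00643). Against sgP2 the difference was 1.45 ± 0.53 (adjusted p = 0.0376). That call was lost without any 1 library of sgP2G or sgDual (adjusted p = 0.058 to 0.0953) and without guide sgDual2 or sgDual3 (adjusted p = 0.128 and 0.109), and the difference was 0.62 without guide sgP2G (adjusted p = 0.17) and 3.43 without sgP2D (adjusted p = 0.000136).

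TFF2 was at 4.08 and 4.94 CPM with sgNC, 6.23 and 7.14 with sgDual2 and 9.39 and 9.82 with sgDual3. With sgP1E it was at 1.54 and 1.56 CPM and with sgP1J at 3.33 and 3.36, with sgP2D at 3.52 and 3.94 and with sgP2G at 1.30 and 1.98. All single-promoter libraries were thus below sgNC and all sgDual libraries above it. Of all genes, 6.92% lay below sgNC in every sgP1 library, 15.6% in every sgP2 library, and 29.8% above it in every sgDual library. None of the 3 group differences from sgNC was past the test (-0.90, -0.76 and 0.85, adjusted p = 0.55, 0.371 and 0.125), although a fit of sgDual and sgNC alone gave an adjusted p of 0.00749. The sgDual group was higher than sgP1 by 1.75 ± 0.34 (adjusted p = 0.00127) and than sgP2 by 1.61 ± 0.34 (adjusted p = 0.00165), and departed from the sum of the single-promoter changes by 2.51 ± 0.53 (adjusted p = 0.0049).

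TFF3 did not pass the test in any ASPC1 group against sgNC, and its 2 sgP2 guides disagreed. It was at 10.3 and 11.2 CPM with sgNC, at 10.2 and 10.3 with sgP2D and at 3.12 and 3.72 with sgP2G. The guides differed by 1.59 ± 0.13 (adjusted p = 1.23e-05). TFF3 was at 7.41 to 8.95 CPM with sgDual, 9.65 and 9.84 with sgP1E and 6.66 and 7.13 with sgP1J. Most like TFF3 over the guides were CRKL (root mean square difference 0.342), FRMD3 (0.378) and LRIG1 (0.395).

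In BxPC3 TFF1 and TFF3 moved in opposite directions with P1-a2. TFF1 was at 1.69 and 1.93 CPM in the controls and 0.73 and 0.816 with P1-a2, a change of -1.22 ± 0.40 (adjusted p = 0.037) that was lost without any 1 of these 4 libraries (adjusted p = 0.0869 to 0.161). With P2-a8 its libraries disagreed, at 0.765 and 1.97 CPM. TFF3 was at 0.546 and 0.595 CPM in the controls, 1.25 and 1.84 with P1-a2 and 0.972 and 1.65 with P2-a8. Both isoform groups lay above the controls, as did 32.5% (P1-a2) and 27.7% (P2-a8) of all genes. Its change was 1.45 ± 0.37 with P1-a2 (adjusted p = 0.0105) and 1.20 ± 0.37 with P2-a8 (adjusted p = 0.0866). Without EV-NC library 2 or P1-a2 library 2 the P1-a2 change had an adjusted p of 0.0698 or 0.0936. TFF2 had 5 to 10 counts per BxPC3 library and was not tested.

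SPDEF, the goblet cell factor, was at 11.7 and 14.7 CPM in the BxPC3 controls, 6.95 and 10.8 with P1-a2 and 8.82 and 10.2 with P2-a8. Both isoform groups lay below the controls, as did 33.5% (P1-a2) and 22.7% (P2-a8) of all genes. The differences were -0.58 ± 0.20 with P1-a2 (adjusted p = 0.0528) and -0.47 ± 0.20 with P2-a8 (adjusted p = 0.221), and neither was past the test. The P1-a2 difference was past it with DESeq2 (adjusted p = 0.0193), with total-count scaling (adjusted p = 0.0481) and without P1-a2 library 1 or EV-NC library 2 (adjusted p = 0.0031 and 0.0456). With no filter on low counts both were past it (adjusted p = 0.000128 and 0.0083). In ASPC1 SPDEF had 1 and 2 counts with sgNC and 4 to 15 in each library with a promoter guide. The change with sgDual was called (adjusted p = 0.0157), although SPDEF had passed the filter through 1 sgP1 and 1 sgDual library alone. The ratio of summed counts was 5.69 for sgDual, with an exact binomial 95% interval of 1.80 to 28.8 (counting error only), and without either sgNC library the adjusted p was 0.0775 or 0.115.

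Counted over comparisons, the members called were set against the share of all tested genes called. In Panc10.05, 2 of 3 tested members were called with P1-a2 (both higher, against 62% of all genes called and 31.5% called higher) and 3 of 3 with P2-a8 (all higher, against 46.2% called and 23.7% called higher). CLRN3 and LYZ among these 3 are genes whose difference the filter favoured, so that nothing is read from the Panc10.05 counts. In BxPC3, 7 of 8 were called with P1-a2 (3 higher and 4 lower, against 32% of all genes, 17.1% higher and 14.9% lower) and 2 of 8 with P2-a8 (1 higher and 1 lower, against 6.99%, 4.3% higher and 2.69% lower). LYZ, CLRN3 and AGR3 among the 8 are such genes too. Between the isoforms, 2 of 3 were called in Panc10.05 (against 46.9%) and 2 of 8 in BxPC3, CLRN3 and LYZ, both higher with P1-a2 (against 22.5% called and 11.6% called higher). The lines differed for 2 of 8 members in the P1-a2 change (against 36.4%), for 1 in the P2-a8 change (against 23.5%) and for 2 in the isoform contrast (against 22.3%).

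In ASPC1, 1 of 9 was called with sgP1 (REG4, against 0.265% of genes called and 0.1% called higher), 2 with sgP2 (REG4 higher and LYZ lower, against 3.42%) and 5 with sgDual (TFF1, AGR2, REG4 and SPDEF higher and CLRN3 lower, against 35.6%, 17.8% in each direction). Against sgP1, sgDual differed in 6 of 9 (against 38.3%) and against sgP2 also in 6 of 9 (against 46.4%). sgP2 and sgP1 differed in 2, AGR2 and REG4, both lower with sgP2 (against 4.3% called and 2.13% called lower). The median log2 fold change of the tested members with sgDual was 0.85, beside 0.00 over all 16992 genes tested. SPDEF is in these counts and in this median. It passed the filter through 1 sgP1 and 1 sgDual library, so that its difference was favoured before the test.

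The members that were tested and not called had these values. In Panc10.05, LYZ differed by 0.02 with P1-a2 (adjusted p = 0.984). In BxPC3, the 6 not called with P2-a8 ran from -0.57 (AGR3) to 1.20 (TFF3), with the smallest adjusted p at 0.0866, and the 6 not called between the isoforms from -1.57 (AGR3) to 0.25 (TFF3), with the smallest at 0.172. In ASPC1, the 8 not called with sgP1 ran from -0.90 (TFF2) to 2.14 (SPDEF) and the 7 not called with sgP2 from -0.76 (TFF2) to 2.11 (SPDEF), with the smallest adjusted p at 0.193 and 0.14. With sgDual, TFF3 lay at -0.36 and CTSE at 0.33, and LYZ and TFF2 are given above. The 7 not called between sgP2 and sgP1 ran from -0.72 (LYZ) to 0.77 (TFF1). Against sgP1, sgDual differed in REG4, TFF3 and SPDEF by -0.16 to 0.28, and against sgP2 in TFF3, SPDEF and CTSE by 0.30 to 0.86. In the line differences, the members not called had adjusted p of 0.374 or more.

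**Figure D4:**
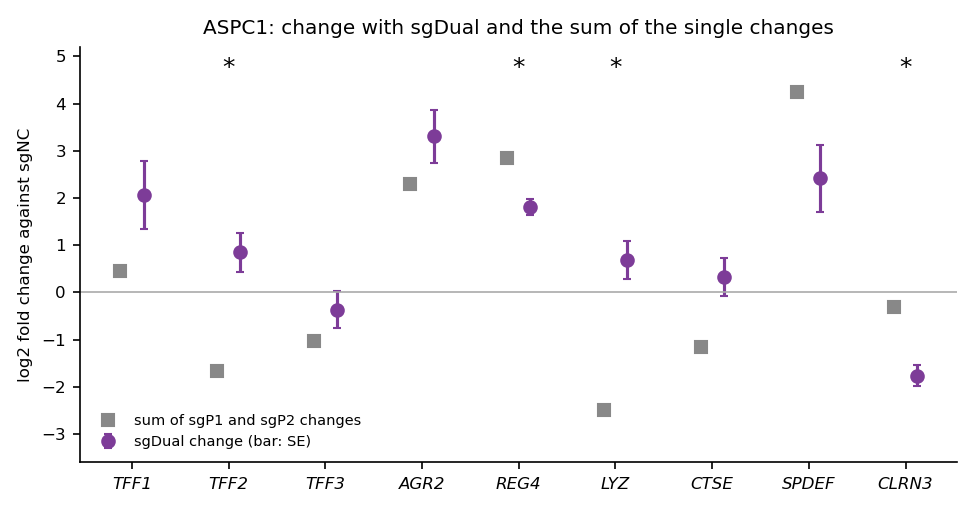
Log2 fold change against sgNC (y axis) of 9 members in ASPC1 (x axis), with a grey square for the sum of the sgP1 and sgP2 changes and a purple point with its SE for sgDual. Asterisks mark the 4 members whose departure from the sum was past the test: TFF2 and LYZ lie above the sum, and REG4 and CLRN3 below it.

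The departure from the sum of the single-promoter changes was called for 4 of 9 members, TFF2 and LYZ upwards and REG4 and CLRN3 downwards, against 20.7% of all genes. HNF4A RNA itself departed from that sum by -2.71 ± 0.52 (adjusted p = 0.00383). Each of these 4 members' calls held in all 25 alternatives run. AGR2 (1.00 ± 0.62, adjusted p = 0.285), TFF1 (1.62 ± 0.95, adjusted p = 0.253), TFF3, CTSE and SPDEF (-1.84) did not pass, with the smallest adjusted p at 0.0614 for CTSE.

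**Figure D5:**
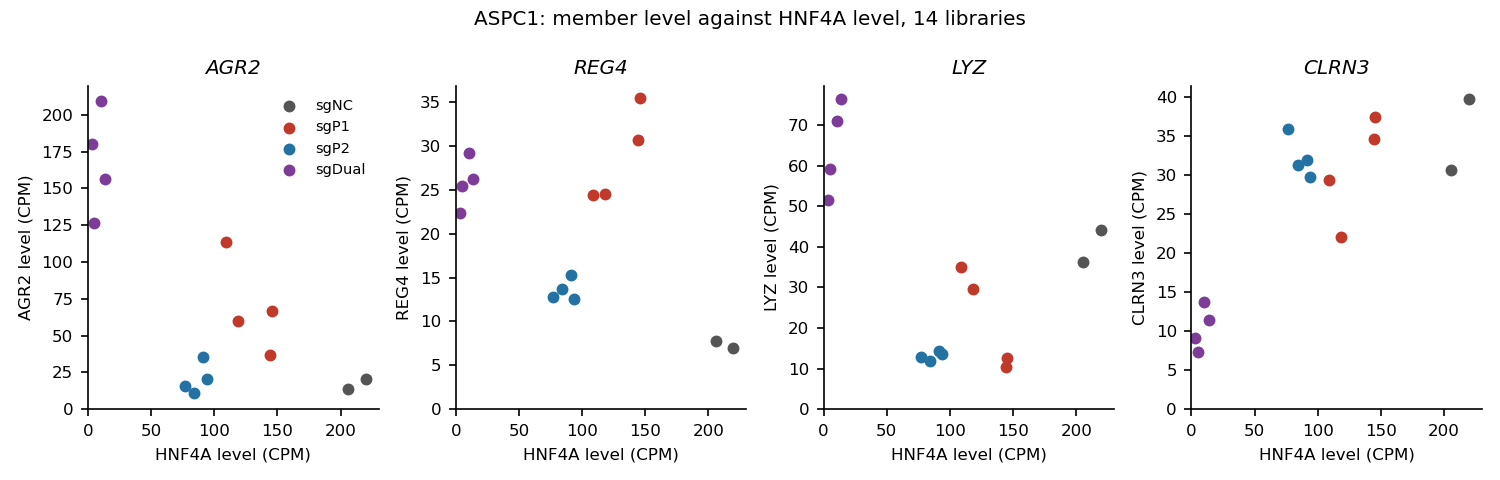
Level in CPM of AGR2, REG4, LYZ and CLRN3 (y axes, from 0) against the level of HNF4A in CPM (x axis) in the 14 ASPC1 libraries, coloured by group. The sgP1 libraries lie above the sgP2 libraries in REG4, AGR2 and HNF4A, and CLRN3 is lowest in the sgDual libraries, where HNF4A is at 3.19 to 13.6 CPM.

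Single guides were also set against sgNC in the fit with 7 guide groups, where the spread is that between the 2 libraries of a guide and not between guides. The members called were 5 of 9 with sgP1E (against 8.62% of all genes), 3 with sgP1J (against 3.04%), 2 with sgP2D (against 8.52%), 4 with sgP2G (against 8.16%), 6 with sgDual2 (against 36.9%) and 8 with sgDual3 (against 37.2%). SPDEF is among those called with sgDual3 (2.74 ± 0.78, adjusted p = 0.0141). It passed the filter through 1 sgP1 and 1 sgDual library alone, so that its difference was favoured before the test. The alternatives were not run on these comparisons of single guides. Several members were called with a guide whose group was not called against sgNC. LYZ was higher with sgDual2 (0.61 ± 0.17, adjusted p = 0.0131) and sgDual3 (0.75 ± 0.17, adjusted p = 0.00406), and lower with sgP1E (-1.81 ± 0.18, adjusted p = 7.94e-05). TFF2 was lower with sgP1E (-1.54, adjusted p = 0.000189) and sgP2G (-1.45, adjusted p = 0.000372) and higher with sgDual2 (0.57, adjusted p = 0.0155) and sgDual3 (1.09, adjusted p = 0.000185). TFF3 was lower with sgP1J (-0.65, adjusted p = 0.0092), sgP2G (-1.65, adjusted p = 4.44e-06) and sgDual3 (-0.42, adjusted p = 0.0127). AGR2 was higher with sgP1E (adjusted p = 0.0458) and sgP1J (adjusted p = 0.0173), and CTSE lower with sgP1E (-1.36, adjusted p = 0.04). REG4 was called higher with each of the 6 guides.

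Guides for 1 promoter did not give the same levels. Between sgP1E and sgP1J, 5 of 9 members differed (2 higher and 3 lower, against 14.5% of all genes), among them TFF2 (-1.11 ± 0.19, adjusted p = 0.00169) and LYZ as given above. The calls for TFF3, REG4 and CTSE were each lost without at least 1 library (adjusted p up to 0.065, 0.211 and 0.324), and that of CTSE, -1.25, was -0.75 without sgP1J library 1. Between sgP2D and sgP2G, the 3 trefoil genes differed and the other 6 members did not pass (3 of 9, all higher with sgP2D, against 1.69% called and 0.647% called higher): TFF1 by 2.80 ± 0.52 (adjusted p = 0.0129), TFF2 by 1.17 ± 0.19 (adjusted p = 0.00556) and TFF3 by 1.59 ± 0.13. Here TFF1 was at 1.26 and 1.82 CPM with sgP2D and at 0.127 and 0.30 with sgP2G. The TFF1 call was lost without sgP2D library 1 or either sgP2G library (adjusted p = 0.106, 0.0513 and 0.161), and that of TFF2 without sgP2D library 1 or sgP2G library 2 (adjusted p = 0.0561 and 0.0819). HNF4A RNA did not differ between sgP2D and sgP2G beyond the test (0.20 ± 0.41, adjusted p = 0.97), at 91.4 and 93.85 CPM against 76.75 and 83.97. Between sgP1E and sgP1J it was at 144.2 and 145.5 CPM against 108.9 and 118.4, also not past the test (0.35 ± 0.41, adjusted p = 0.627). The part of HNF4A level in these guide differences was not tested. Between sgDual2 and sgDual3, edgeR called 0 of 9 members (against 0.883%), with the smallest adjusted p at 0.224 for TFF2.

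The neighbours of the gene clusters were read beside them. TMPRSS3, 5.24 kb from the trefoil cluster, fell by 1.40 on the log2 scale with P1-a2 in BxPC3 (adjusted p = 0.00927), and ABCG1, on the other side, rose by 1.05 with sgDual in ASPC1 (adjusted p = 0.0202). TSPAN13 and AHR, which flank AGR2 and AGR3, rose with sgDual by 1.22 ± 0.21 (adjusted p = 0.000544) and 0.77 ± 0.10 (adjusted p = 6.4e-05), while BZW2, beyond TSPAN13, fell by 0.61 (adjusted p = 0.00011). In BxPC3 with P1-a2, TSPAN13 rose by 0.48 (adjusted p = 0.00012), where AGR2 fell. In Panc10.05, ABCG1 (-2.25), TSPAN13 (-0.76) and AHR (-0.70) were called lower with P1-a2. With P2-a8, ABCG1 (-1.51), AHR (-0.35) and BZW2 (-0.26) were called lower there. BZW2 was also called lower with sgP2 (-0.35, adjusted p = 0.0393). Of all genes, 35.6% were called with sgDual, 3.42% with sgP2 and 32% with P1-a2 in BxPC3. In Panc10.05 the shares were 62% with P1-a2 and 46.2% with P2-a8.

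Other classical tumour markers, 15 genes, had mixed directions. With sgDual, 5 of 13 tested rose and 4 fell (against 17.8% of all genes in each direction), among them ST6GALNAC1 (4.63, adjusted p = 0.00175), a sialyltransferase of mucin glycans, and PLA2G10 (2.95, adjusted p = 0.0187), while MYO1A, a brush border myosin, fell by 2.63 (adjusted p = 5.04e-08). In BxPC3, 2 of 11 tested rose and 4 fell with P1-a2 (against 17.1% and 14.9% of all genes). With P2-a8, 2 rose and 2 fell there (against 4.3% and 2.69%). In Panc10.05, 3 of 4 tested rose and 0 fell with each isoform (against 31.5% called higher with P1-a2 and 23.7% with P2-a8). MYO1A rose with both isoforms in both induced lines, by 3.63 and 3.37 in Panc10.05 and by 5.28 and 3.32 in BxPC3 (P1-a2 first, adjusted p at most 9.36e-05). CLRN3 took the same direction as MYO1A in each of these 5 comparisons.

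Of 11 trefoil partners and receptors, 2 of 5 tested rose with sgDual and 2 fell (against 17.8% of all genes in each direction). DMBT1, a mucin-like scavenger receptor, rose by 3.67 (adjusted p = 0.000351) and the secreted mucin MUC2 by 2.79 (adjusted p = 0.0148), while the receptor ACKR3 fell by 1.66 (adjusted p = 1.86e-05). In BxPC3 with P1-a2, 4 of 6 tested fell and 1 rose (against 14.9% and 17.1%). MUC5AC, the gastric surface mucin, fell by 3.36 (adjusted p = 0.000119) and MUC2 fell by 3.08 (adjusted p = 6.7e-07). The gastric peptide GKN1 fell by 2.53 (adjusted p = 0.00709). With P2-a8, 3 of 6 fell and 1 rose (against 2.69% and 4.3%).

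Of 20 goblet and gastric secretory genes, 5 of 13 tested rose with sgDual and none fell (against 17.8% of all genes in each direction), the largest being ERN2 (3.74, adjusted p = 0.00269), a mucous-cell sensor of endoplasmic reticulum stress, CREB3L1 (3.21, adjusted p = 0.000153) and BCAS1 (3.14, adjusted p = 0.00117). With P1-a2 in BxPC3, 7 of 12 fell (against 14.9%) and 2 rose (against 17.1%), SULT1C2 by 4.52 (adjusted p = 6.99e-07) and MUC13 by 3.92 (adjusted p = 5.41e-10). The largest fall was that of the mucin MUC1, which fell by 2.09 (adjusted p = 1.37e-07). The median over the 13 tested was 0.53 with sgDual and over the 12 tested -0.79 with P1-a2, beside 0.00 and -0.01 over all genes. With sgP1 and sgP2 none of the 13 was called by edgeR, where 0.265% and 3.42% of all genes were called. The medians over the 13 were 0.56 with sgP1 and 0.14 with sgP2.

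Among 20 disulfide isomerase and folding genes of the endoplasmic reticulum, the group to which AGR2 belongs by function, 3 of 19 tested rose and 3 fell with sgDual, shares near the 17.8% of all genes in each direction. PDIA2 rose by 3.07 (adjusted p = 0.000652) and the oxidase ERO1B by 1.96 (adjusted p = 0.00596). The median over the 19 with sgDual was -0.08. With P1-a2, 7 of 19 rose and 1 fell in BxPC3 (against 17.1% and 14.9% of all genes). In Panc10.05, 6 of 18 rose and 11 fell with P1-a2 (against 31.5% and 30.5%). With P2-a8, 1 of 19 rose and 0 fell in BxPC3 (against 4.3% and 2.69%), and 4 of 18 rose and 9 fell in Panc10.05 (against 23.7% and 22.5%). Of 13 relatives of the members by family, 2 of 4 tested rose with sgDual (against 17.8%), the aspartic protease CTSD (1.27, adjusted p = 8.36e-06) and the ETS factor ELF3 (0.71, adjusted p = 0.0488). CTSD fell with P1-a2 in both induced lines, by 0.32 in Panc10.05 (adjusted p = 7.27e-06) and by 0.84 in BxPC3 (adjusted p = 1.14e-06), where its relative CTSE moved in opposite directions.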

How the data were processed

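Poly(A) RNA of 26 libraries was measured. The values are raw read counts per gene deposited by the authors. The submitters' processing notes name cutadapt 1.16, STAR 2.7.9a, featureCounts 1.6.3, DESeq2 1.36.0 and GRCh38. The library kit was directional per the labels' protocols, while the strand setting and annotation of the counting are not given in the sources used here. Replicates of a guide or group differed by more than counting noise (chi-square per degree of freedom 5.56 to 27.1), so none was merged.

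Each line was fitted on its own with all of its groups in edgeR 4.0.16 (R 4.3.3, filterByExpr, TMM scaling, quasi-likelihood test), with p-values adjusted by Benjamini-Hochberg over all genes tested in that table. In the ASPC1 group tests, the 4 libraries of sgP1, sgP2 or sgDual entered as 4 replicates with no term for guide. Guides thus stood in as replicates of a condition, and libraries of the same guide were not treated as related. A joint fit of Panc10.05 and BxPC3 gave differences between the lines, and a fit with 7 guide groups gave differences between guides. The departure of sgDual was the contrast sgDual - sgP1 - sgP2 + sgNC. Fold bounds against groups with no reads used a floor of 3 counts. The steps were checked on simulated data. No column of samples outside the series was present.

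All 10 members are reported in every comparison, singly or, where not called, by their range. Of each other list, up to 3 called genes with the largest absolute log2 fold change are named. For members of at least 5 CPM, the 3 genes with the smallest root mean square difference over 6 guides are named, except 1 gene for CLRN3 that is not reported here. The members and lists were chosen with earlier results of these data known. Alternatives were total-count scaling, DESeq2 1.42.0, no filter, a call that also needed a log2 change of 1 or more in size, a replicate block, the 2 compared groups alone, and leaving out each library or guide. The replicate numbers come from the sample titles alone and were not treated as pairs.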

Additional observations from a re-analysis of the deposited data

Results flagged for a closer look

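In 5 results the effect of an isoform differed between the cell lines, by the interaction term of the joint edgeR fit, written as Panc10.05 minus BxPC3 on the log2 scale. For CTSE the difference was 2.60 with P1-a2 and 2.26 with P2-a8, higher in both induced libraries of each isoform in Panc10.05 and lower in both in BxPC3. For LYZ it was -3.31 with P1-a2 against the controls and -3.99 for P1-a2 against P2-a8, on 1 to 13 counts per library in Panc10.05. The first was -1.52 without GFP-NC library 2. In the single-line fits LYZ passed the filter through P2-a8 libraries alone in Panc10.05 and through P1-a2 libraries alone in BxPC3. Differences between the lines in LYZ were thus favoured before the test. For CLRN3 it was -1.84 for P1-a2 against P2-a8. The doxycycline dose, the control vector, the HNF4A level and the series of library numbers in the sample titles differ between the lines. None of these can be told apart from the line. A search for single libraries far from the others, by Dixon's ratio in the 3 ASPC1 groups of 4 libraries, covered 27 sets of member values and found 0.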

How the results depend on the processing

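Of 57 called results for single members, 34 kept their call in every alternative run and 23 lost it in at least 1. Of 90 results not called, 29 were called in at least 1 alternative. No direction of a called result reversed. Counts of called members moved by over 1.5 times as follows. Where a call also needed a log2 change of 1 or more in size, 1 member was called between the isoforms in Panc10.05, 1 with sgP2 and 3 between sgP1E and sgP1J. DESeq2 called 0 between the isoforms in Panc10.05, 1 in BxPC3, 2 with sgP1, and for the line differences 2 with P2-a8 and 1 between the isoforms. DESeq2 gave LYZ no adjusted p in the BxPC3 isoform comparison and in the matching line difference. With no filter it was 1 between the isoforms in Panc10.05, 4 with P2-a8 in BxPC3, 1 with sgP2, 1 between sgP2 and sgP1, and 1 between sgDual2 and sgDual3. With only the 2 groups compared it was 1 between sgP2 and sgP1. Without guide sgP1J it was 4 with sgP1 and 1 between sgP2 and sgP1, without sgP2G 1 with sgP2, and without sgDual3 3 with sgDual. The cause was not tested.

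Leaving out 1 library at a time gave 2 to 3 members with P2-a8 and 0 to 2 between the isoforms in Panc10.05. In BxPC3 it gave 4 to 6 with P1-a2, 1 to 3 with P2-a8 and 2 to 3 between the isoforms. In ASPC1 it gave 0 to 2 with sgP2, 3 to 5 with sgDual, 1 to 2 between sgP2 and sgP1, 4 to 6 for sgDual against sgP1, 5 to 7 against sgP2, 4 to 5 for the departure, 2 to 5 between sgP1E and sgP1J and 1 to 3 between sgP2D and sgP2G. For the line differences it gave 1 to 2 with P1-a2 and 1 to 2 with P2-a8. A group left with 1 library was assumed to vary like the others.

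With the replicate block, 4 members were called with P2-a8 in BxPC3 and 1 between sgDual2 and sgDual3, and LYZ with P2-a8 in Panc10.05 had an adjusted p of 0.0558. The block also put past the test SPDEF with P1-a2 and P2-a8 (adjusted p = 0.000362 and 0.00734), TFF3 with P2-a8 (0.0203) and AGR2 between the isoforms (0.0304) in BxPC3. In ASPC1 it did so for CTSE against sgP2 and in the departure (0.0306 and 0.0383), AGR2 and CLRN3 between sgP1E and sgP1J (0.0128 and 0.00161), AGR2 between sgP2D and sgP2G (0.0246) and TFF2 between sgDual2 and sgDual3 (0.0322). It changed no other call of a member. Same-numbered libraries correlated in their deviations from the group means at -0.0259 to 0.021 in Panc10.05, 0.174 to 0.312 in BxPC3 and 0.183 to 0.58 in ASPC1, which is a hint of pairing in the latter lines and not part of the labelled design. Depth limits AGR3 and SPDEF in ASPC1, LYZ in the induced lines and the trefoil genes in Panc10.05.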
